A study of Mus musculus with 6 samples.

Results

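The genes of cholesterol synthesis, uptake and sensing were compared between livers of FRG mice kept on NTBC (FRG+NTBC) and livers of FRG mice without the drug for 7 days (FRG-7dNTBC). The list holds 28 genes, and a gene was measured where a probe set of the array carried its symbol alone. This held for 25 of the 28 genes, at 55 of the 45037 probe sets. Each gene was represented by its brightest probe set, judged by the mean log2 intensity of the 6 arrays, and the same rule represented 18193 genes of the whole array. Acat2, Soat1 and Soat2 were not analysed here.

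FRG mice are knockouts of Fah, with which tyrosine breakdown ends, and of Rag2 and Il2rg on a C57Bl/6J background, and therefore have no mature T, B and NK cells. NTBC (nitisinone) inhibits Hpd, which acts earlier in the same route, and so keeps toxic tyrosine products from forming. All 6 mice were males of 12 weeks, carried these knockouts, ate a chow low in tyrosine and phenylalanine and had received 16 mg/L NTBC with dextrose in their drinking water. In the 3 FRG-7dNTBC mice the drug was withdrawn at 11 weeks of age, whereas the 3 FRG+NTBC mice stayed on it. Both groups carry the Fah knockout and no array of a wild-type mouse was analysed, so the comparison describes drug withdrawal in a Fah-deficient liver.

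Liver cells build cholesterol from acetyl-CoA through mevalonate, the isoprenoid units, squalene and lanosterol, and the last enzymes remodel lanosterol into cholesterol. The pathway is set by the membrane-bound transcription factor SREBP-2, the product of Srebf2. When sterols are scarce, Scap carries it from the endoplasmic reticulum to the Golgi for cleavage, and when sterols are plentiful the INSIG proteins hold Scap back. Most enzymes of the pathway are known SREBP-2 targets, as are Insig1 and Stard4.

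SREBP proteins bind the sterol regulatory element in promoters, usually next to sites for NF-Y, which binds CCAAT boxes, and Sp1, which binds GC boxes. RefSeq promoter windows on GRCm38.p6, each 300 bases long with 250 before and 50 after a start site, were found for 22 of the 28 genes. A CCAAT box (CCAAT) stood in a window of 20 of these 22 genes, against 41.1% of 27025 genes with a window, and a GC box (GGGCGG) in a window of 21, against 38.2%. The sterol regulatory element (TCACNCCAC) was matched in Hmgcs1 alone, against 1.44% of genes. The E-box (CACGTG) was matched in 5 genes, namely Dhcr7, Hsd17b7, Insig1, Sc5d and Scap, against 8.09% of genes. Both strands were searched, and no match of the CCAAT box, the sterol regulatory element or the E-box overlapped a match of another of these motifs. A match is a description of letters and not a bound site. The windows that follow run in the direction of the gene, with CCAAT boxes, the sterol regulatory element and E-boxes in capitals, whichever strand holds them. They belong to Hmgcs1, the gene with the sterol regulatory element, to Nsdhl, the synthesis enzyme with the largest fall at its brightest probe set, and to Insig1 and Insig2, the sensing genes that moved in opposite directions.
Hmgcs1, chr13:119690101-119690400, plus strand: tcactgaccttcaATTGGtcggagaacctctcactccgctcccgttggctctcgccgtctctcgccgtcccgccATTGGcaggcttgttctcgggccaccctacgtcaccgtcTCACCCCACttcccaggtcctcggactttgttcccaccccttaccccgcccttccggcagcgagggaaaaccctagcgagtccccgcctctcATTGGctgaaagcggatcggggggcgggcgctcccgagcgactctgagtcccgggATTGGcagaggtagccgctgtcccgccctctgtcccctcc
Nsdhl, chrX:72918271-72918570, plus strand: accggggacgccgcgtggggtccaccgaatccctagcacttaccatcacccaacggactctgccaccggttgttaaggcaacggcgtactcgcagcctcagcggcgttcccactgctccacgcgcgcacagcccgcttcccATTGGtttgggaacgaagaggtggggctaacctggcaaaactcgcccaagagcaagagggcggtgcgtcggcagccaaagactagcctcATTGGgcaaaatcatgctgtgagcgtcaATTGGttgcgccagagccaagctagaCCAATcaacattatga
Insig1, chr5:28071162-28071461, plus strand: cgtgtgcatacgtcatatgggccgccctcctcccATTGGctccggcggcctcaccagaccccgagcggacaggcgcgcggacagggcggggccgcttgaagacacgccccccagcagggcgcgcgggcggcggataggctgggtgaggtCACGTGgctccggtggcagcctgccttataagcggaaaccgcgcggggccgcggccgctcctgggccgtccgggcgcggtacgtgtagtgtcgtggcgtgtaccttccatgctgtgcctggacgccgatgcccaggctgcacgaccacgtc
Insig2, chr1:121332540-121332839, minus strand: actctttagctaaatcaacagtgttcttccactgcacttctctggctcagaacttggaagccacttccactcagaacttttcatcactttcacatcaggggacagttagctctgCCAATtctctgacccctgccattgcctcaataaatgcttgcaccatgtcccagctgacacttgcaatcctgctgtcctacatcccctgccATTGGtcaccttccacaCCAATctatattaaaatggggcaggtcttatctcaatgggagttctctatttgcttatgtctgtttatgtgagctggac
In Hmgcs1, the sterol regulatory element began at position -137 from the start site, between CCAAT boxes at -176 and -45. Nsdhl held 4 CCAAT boxes, at -109, -20, 9 and 35. Insig1 had a CCAAT box at -216 and an E-box at -101, and the Insig2 window had CCAAT boxes at -136, -46 and -29. The other windows of Insig2 held none of the motifs shown in capitals.

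Across the 25 measured genes, 12 were lower and 2 were higher in FRG-7dNTBC livers at an adjusted p under 0.05 (limma, Benjamini-Hochberg over all probe sets), and 11 did not pass. Among all genes represented in the same way, 12.7% were lower and 17.4% were higher. The listed genes were brighter than most, with a median FRG+NTBC intensity of 973 against 67.3 over all genes. Shares among genes of like brightness were not computed, here or for the counts that follow. The fall was at least 2-fold for 10 of the 12 lower genes, against 4.95% of all genes, and both higher genes rose at least 2-fold, against 8.94%. The FRG-7dNTBC values lay below all FRG+NTBC values at 13 of the genes, against 23.4% of all genes, and above them at 2, against 22.8%. The median log2 fold change was -0.37, against -0.05 over all genes. The 17 measured synthesis enzymes had a median of -0.64, and 10 of them fell while Sqle rose. The lower genes lay in every measured role, from the mevalonate steps to sterol transport. Without moderation of the variances, 8 genes were lower and 1 was higher, and Hmgcs1, Hsd17b7, Sc5d, Dhcr7 and Insig2 did not pass.

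**Figure D1:**
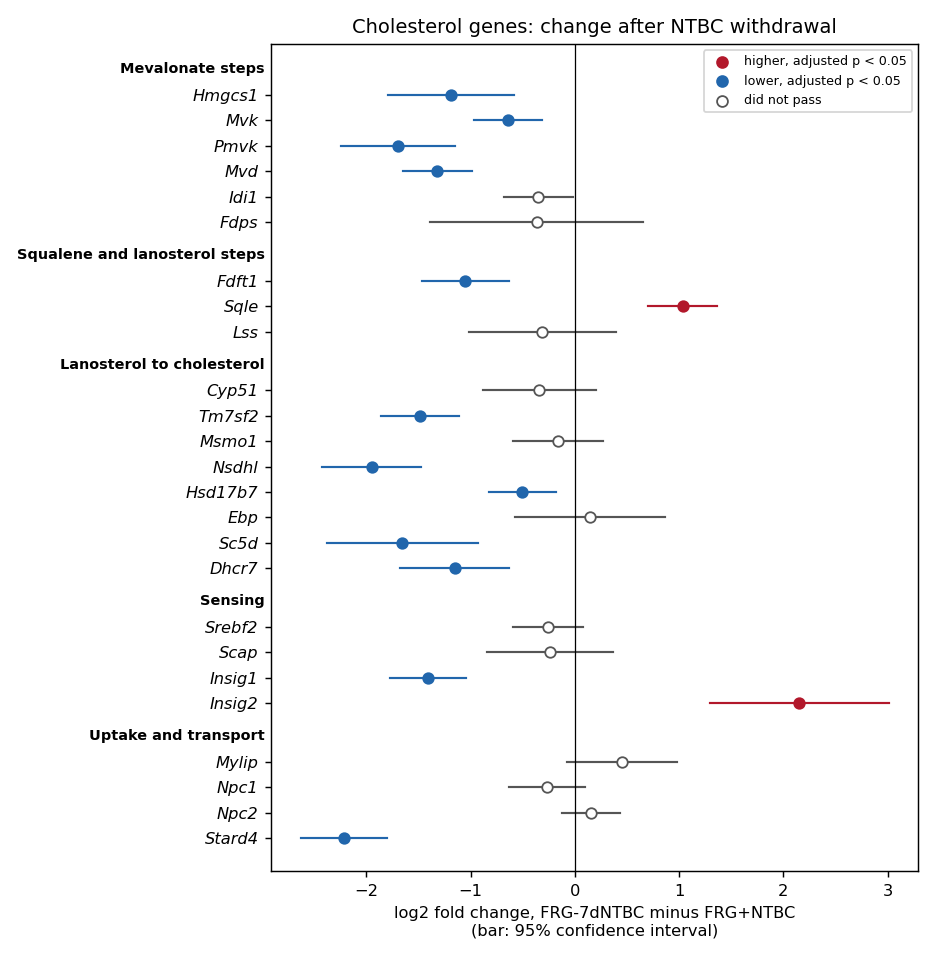
Log2 fold change (x axis, FRG-7dNTBC minus FRG+NTBC, 3 mice per group) of the 25 measured cholesterol genes in pathway order (y axis), with 95% confidence intervals as bars and filled points for an adjusted p under 0.05. The 12 lower genes are spread over all roles, and Sqle and Insig2 are the 2 filled points to the right of 0.

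The arrays report on whole liver, where fewer cells of a type and less RNA per cell cannot be told apart. Of 5 hepatocyte markers 0 passed the limma test, also at an unadjusted p under 0.05, and their summed intensity was 109219 to 112440 in FRG+NTBC and 103364 to 110245 in FRG-7dNTBC livers. Alb, Ttr, Apoa1 and Apoa2 had group means of 20726 to 27306, near the highest intensity in the data, 29532. Whether such bright signals can still show a change was not tested. Of 12 Kupffer cell and macrophage markers 6 rose, and their summed intensity was 2173 to 3295 on NTBC and 3093 to 7887 after withdrawal. Of 5 stellate markers 1 (Lrat) rose, and of 5 endothelial markers 2 (Clec4g and Lyve1), where 17.4% of all genes were higher. Of 3 neutrophil and 4 biliary markers 0 passed the limma test, and at an unadjusted p under 0.05 these were 0 and 2 (Krt7 lower and Sox9 higher). The neutrophil and biliary markers were dim, with group means of 17.4 to 81.6. The part of these cells in the results was not tested. Hpd, the drug target, fell from 12081 ± 386 to 5766 ± 1431 (SD, n = 3; limma adjusted p = 0.00428). Markers of cells that FRG mice lack, Rag2 among them, gave mean intensities of 8.06 to 64.3 over both groups, which shows how bright a probe set of a gene without a source can be. Signal for Fah, disrupted in both groups, was brighter, at 198 ± 16.5 on NTBC and 95.5 ± 20.2 after withdrawal (limma adjusted p = 0.00258). Where its probes lie relative to the disruption was not tested, so it does not check the labels. The first principal component, with 76.2% of the variance, separated the groups, and the second, with 10.7%, set FRG-7dNTBC replicate 2 apart from replicate 3.

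The mevalonate steps were lower at 4 of 6 measured genes and higher at none, where 12.7% of all genes were lower and 17.4% higher. Their median log2 fold change was -0.92. Hmgcs1, which condenses acetyl-CoA and acetoacetyl-CoA to HMG-CoA in the cytosol, had intensities of 8964, 8903 and 7968 in FRG+NTBC replicates 1 to 3 and of 4182, 2419 and 5293 in FRG-7dNTBC replicates 1 to 3. All FRG-7dNTBC livers lay below all FRG+NTBC livers, and they differed more among themselves. The mean fell from 8612 ± 558 to 3965 ± 1450 (SD, n = 3), a 2.28-fold decrease (log2 fold change -1.19 with an SE of 0.26, limma adjusted p = 0.0118). Pmvk, the kinase of phosphomevalonate, stood at 491, 545 and 455 on NTBC and at 119, 228 and 132 after withdrawal. It fell 3.24-fold (log2 fold change -1.70, SE 0.24, adjusted p = 0.00147), and the groups were far apart compared with their spread. Mvd, which decarboxylates the product of Pmvk to isopentenyl diphosphate, gave 280.1, 217 and 215 on NTBC against 98.4, 95.7 and 89.3 after withdrawal. The FRG-7dNTBC livers were close together, and the fall was 2.50-fold (log2 fold change -1.32, SE 0.14, adjusted p = 0.000488). Mvk, which phosphorylates mevalonate, fell less, from 156, 161 and 134 to 109, 93.7 and 86.8 (1.56-fold, log2 fold change -0.64, SE 0.14, adjusted p = 0.0113). Its adjusted p was 0.0515 without FRG+NTBC replicate 2, and its dimmer probe set had a log2 fold change of -0.02.

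The last genes of this stage did not pass. Idi1, the isomerase that makes the reactive isoprenoid unit, stood at 1333, 1510 and 1574 on NTBC and at 1128, 1323 and 1024 after withdrawal. The groups touched without overlapping, and the log2 fold change was -0.35 (95% confidence interval -0.68 to -0.02, adjusted p = 0.107). The second probe set of Idi1 fell by 0.61 on the log2 scale (adjusted p = 0.0117), from 753 ± 52.8 to 494 ± 55.2. Fdps joins isoprenoid units to farnesyl diphosphate, the branch point towards sterols, dolichol and prenylated proteins. Its intensities were 292, 329 and 302 on NTBC and 261, 468 and 111 after withdrawal, so that FRG-7dNTBC replicate 2 was above and replicate 3 below all FRG+NTBC livers. The log2 fold change was -0.37, with a 95% confidence interval of -1.39 to 0.65, and it was 0.19 without FRG-7dNTBC replicate 3.

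The squalene and lanosterol steps held changes in both directions. Fdft1, the squalene synthase that commits farnesyl units to sterols, stood at 3304, 2740.1 and 2759 on NTBC and at 1479, 1113 and 1710.3 after withdrawal. The groups were apart, with a fall of 2.07-fold (log2 fold change -1.05, SE 0.18, adjusted p = 0.00371). Sqle, the squalene epoxidase that follows it, was the only synthesis enzyme that passed on the higher side at its brightest probe set. Its intensities were 271, 365 and 340.1 on NTBC and 653, 671 and 657 after withdrawal, and the FRG-7dNTBC livers lay within a ratio of 1.03 of each other. The rise was 2.05-fold (log2 fold change 1.03, SE 0.14, adjusted p = 0.00139), at the single probe set of this gene. Lss, which folds epoxidised squalene into lanosterol, gave 815, 360 and 375 on NTBC and 439.6, 399 and 326 after withdrawal at its brightest probe set. FRG+NTBC replicate 1 stood alone there, and the log2 fold change of -0.31 (adjusted p = 0.488) became 0.07 without that mouse. A second Lss probe set was 256, 191 and 205 on NTBC against 53.1, 55 and 56.5 after withdrawal, a log2 fold change of -1.98 (adjusted p = 9.55e-05).

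The plot of intensities per mouse sets the Sqle rise beside the falls of Hmgcs1, Pmvk, Nsdhl and Sc5d. It also shows the wide FRG-7dNTBC spread of Fdps and Ebp.

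**Figure D2:**
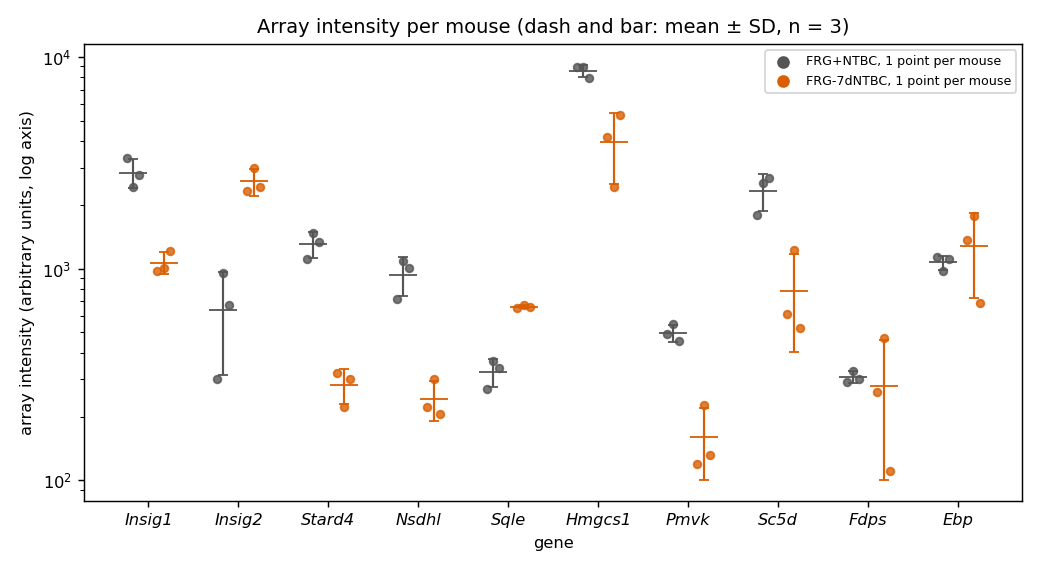
Array intensity (y axis, log scale, arbitrary units) of 10 cholesterol genes (x axis) in each of the 3 FRG+NTBC and 3 FRG-7dNTBC livers, with the mean and SD per group as a dash and bar. Insig2 and Sqle lie higher after withdrawal, whereas the Fdps and Ebp values of the groups overlap; levels compare within a gene only, since probe sets differ in brightness.

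The enzymes from lanosterol to cholesterol were lower at 5 of 8 genes and higher at none, against 12.7% and 17.4% of all genes. Their median log2 fold change was -0.83. Nsdhl, a sterol dehydrogenase of the demethylation at carbon 4, had intensities of 719, 1082 and 1009.9 on NTBC and of 221, 300.2 and 205 after withdrawal. No liver of either group came near the other group, and the mean fell from 937 ± 192 to 242 ± 50.9, a 3.86-fold decrease (log2 fold change -1.95, SE 0.21, adjusted p = 0.000443). Tm7sf2, a sterol reductase that acts after Cyp51, gave 1098, 1235 and 1024 on NTBC against 396, 478 and 333 after withdrawal. Its fall of 2.80-fold (log2 fold change -1.49, SE 0.16, adjusted p = 0.000492) was again larger than the spread of either group. Sc5d, the desaturase that forms 7-dehydrocholesterol, stood at 1795, 2539 and 2665 on NTBC and at 609, 1226 and 523 after withdrawal. FRG-7dNTBC replicate 2 was the highest of its group but remained below all FRG+NTBC livers (3.15-fold lower, log2 fold change -1.65, SE 0.32, adjusted p = 0.00612). Its second probe set fell more, from 788 ± 213 to 90.3 ± 28.2 (log2 fold change -3.13). Dhcr7, the reductase that turns 7-dehydrocholesterol into cholesterol, was 2120.2, 1389 and 1468 on NTBC and 867, 553 and 820.3 after withdrawal. The groups did not overlap, and the fall was 2.22-fold (log2 fold change -1.15, SE 0.23, adjusted p = 0.00688).

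Hsd17b7, the keto-reductase of the same demethylation, was 1.42-fold lower at the brightest probe set, from 776, 695 and 776 to 498, 481 and 613 (log2 fold change -0.50, SE 0.14, adjusted p = 0.0295). This call was lost in 5 of 6 fits that left out 1 mouse, with adjusted p-values of 0.0588 to 0.101, and remained only without FRG-7dNTBC replicate 3. The other Hsd17b7 probe sets lay higher in every FRG-7dNTBC liver, with log2 fold changes of 0.35, 0.62 and 0.21, none of which passed. The one at 0.21 had means of 13.5 and 15.7, within the brightness of the markers of absent cells. Hence the direction of this gene depended on the probe set.

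Cyp51, Msmo1 and Ebp did not pass. Cyp51, the demethylase that acts on lanosterol itself, stood at 553, 798 and 879 on NTBC and at 437, 719 and 609 after withdrawal, with overlapping groups and a log2 fold change of -0.34 (adjusted p = 0.323). Msmo1 oxidises the methyl groups that Nsdhl and Hsd17b7 then help to remove. Its brightest probe set gave 838, 1168 and 1218 against 929, 1121 and 815 (log2 fold change -0.16, 95% confidence interval -0.60 to 0.27), and a dim one fell from 95.7 ± 7.73 to 15.1 ± 4.22 (log2 fold change -2.70, adjusted p = 0.000118). Ebp, the isomerase before Sc5d, was 1128, 976 and 1105 on NTBC and 1361, 1771 and 685 after withdrawal. FRG-7dNTBC replicates 1 and 2 stood above and replicate 3 below all FRG+NTBC livers, so that the log2 fold change of 0.15 (adjusted p = 0.763) was 0.54 with an adjusted p of 0.0445 without replicate 3 and -0.15 without replicate 2.

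The sensing genes showed the widest contrast. Insig1, a retention protein that is itself an SREBP target, stood at 3327, 2436 and 2759 on NTBC and at 976, 1009.9 and 1209 after withdrawal. All FRG-7dNTBC livers were far below all FRG+NTBC livers, with a mean of 1065 ± 126 against 2841 ± 451, a 2.66-fold decrease (log2 fold change -1.41, SE 0.16, adjusted p = 0.000562). Insig2, the second retention protein, which in liver has a transcript known to be lowered by insulin, gave 300.2, 949 and 671 on NTBC and 2320.2, 2998 and 2419 after withdrawal. The FRG+NTBC livers varied by a ratio of 3.16 among themselves, and all were below all FRG-7dNTBC livers. The rise was 4.45-fold (log2 fold change 2.15, SE 0.37, adjusted p = 0.0039), and the other Insig2 probe sets rose by 2.46 and 2.10 on the log2 scale. Neither the factor nor its escort passed. Srebf2 was 214, 280.1 and 271 on NTBC and 231, 201 and 204 after withdrawal, with a log2 fold change of -0.26 (95% confidence interval -0.60 to 0.08) and one of 0.49 at its dimmer probe set, which did not pass (adjusted p = 0.0822). Scap was 792, 1075 and 1082 on NTBC and 843, 1176 and 568 after withdrawal, so that FRG-7dNTBC replicate 2 lay above and replicate 3 below all FRG+NTBC livers. Its log2 fold change was -0.24 (95% confidence interval -0.84 to 0.37).

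Of the uptake and transport genes, only Stard4 passed at its brightest probe set. Stard4, a carrier that moves cholesterol between membranes through the cytosol, stood at 1105, 1468 and 1333 on NTBC and at 322, 223 and 302 after withdrawal. This was the largest fall among the brightest probe sets of the 25 genes, with no overlap between the groups (4.64-fold lower, log2 fold change -2.21, SE 0.18, adjusted p = 0.000153). Both other Stard4 probe sets fell as well, by 0.99 and 0.93 on the log2 scale. Mylip, a ubiquitin ligase that sends lipoprotein receptors to degradation, had a log2 fold change of 0.45 (95% confidence interval -0.08 to 0.98), with intensities of 113 to 179 on NTBC and 152 to 251 after withdrawal. Npc1 and Npc2, which hand cholesterol out of the lysosome, had log2 fold changes of -0.27 (95% confidence interval -0.63 to 0.09) and 0.16 (95% confidence interval -0.12 to 0.44). Their groups overlapped, and a dim Npc2 probe set rose from 56.6 ± 4.31 to 83.5 ± 13.9 (adjusted p = 0.0328).

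Over all 55 probe sets of the measured genes, 23 were lower and 5 higher, against 13.9% and 14% of all probe sets. Of the 16 genes with several probe sets, 7 had the same call at all of them and 9 did not. A total of 16 genes were lower at 1 or more probe sets and 3 were higher, namely Sqle, Insig2 and Npc2. This rule gives genes with several probe sets more chances of a call, and its share over all genes was not computed. No gene had calls in both directions. The genes that did not pass at the brightest probe set but fell at another were Idi1, Lss, Msmo1 and Scap, and that of Scap was dim, at 27.2 ± 1.82 and 16.4 ± 2.55. Hmgcs1 showed the reverse, since its probe sets of intermediate brightness had log2 fold changes of -0.43, -0.38 and 0.16 and did not pass, and only a dim one fell beside the brightest (-1.13).

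**Figure D3:**
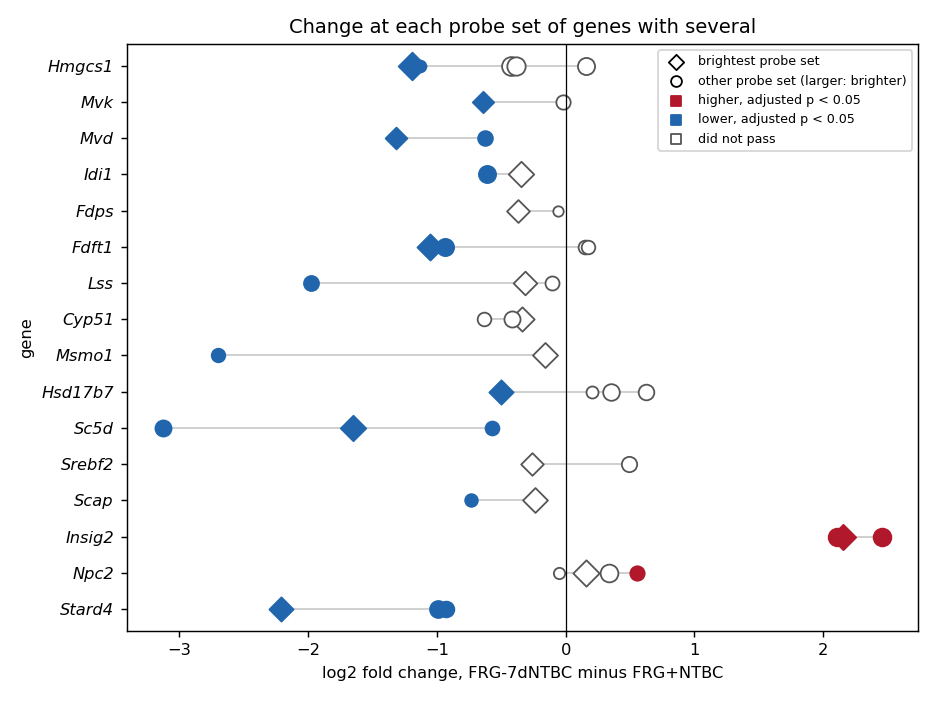
Log2 fold change (x axis, FRG-7dNTBC minus FRG+NTBC) at each probe set of the 16 cholesterol genes with several (y axis), with a diamond for the brightest, larger symbols for brighter ones and fill for an adjusted p under 0.05. All Insig2 probe sets were higher and all Stard4 and Sc5d probe sets lower, although the falls of Stard4 and Sc5d differed in size. The calls differed between the probe sets of Hsd17b7, Lss and Msmo1.

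Each FRG-7dNTBC liver carried the lower synthesis values. The median deviation of the 17 synthesis enzymes from the FRG+NTBC mean was -0.74, -0.68 and -0.77 on the log2 scale in FRG-7dNTBC replicates 1 to 3, and 15, 13 and 16 of the 17 enzymes lay below that mean. The livers did not share the same order at every gene. FRG-7dNTBC replicate 2 was the highest of its group at 15 of the 25 genes and replicate 3 the lowest at 12. The shares of all genes with these orders were not computed. Over all probe sets, the 75th percentile of the intensities was 148, 151 and 142 in FRG-7dNTBC replicates 1 to 3. The order is therefore not particular to these genes. In replicate 2, Hmgcs1, Fdft1, Dhcr7 and Stard4 were the lowest of the group, whereas Pmvk, Fdps, Ebp and Sc5d were the highest. The ratio of the highest to the lowest FRG-7dNTBC liver was 4.23 for Fdps, 2.58 for Ebp, 2.35 for Sc5d and 2.19 for Hmgcs1, against 1.13, 1.16, 1.48 and 1.13 in the FRG+NTBC livers. The median SD of the log2 values over the 25 genes was 0.217 on NTBC and 0.260 after withdrawal, against 0.168 and 0.176 over all genes. These spreads rest on 3 mice per group, and their difference was not tested.

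**Figure D4:**
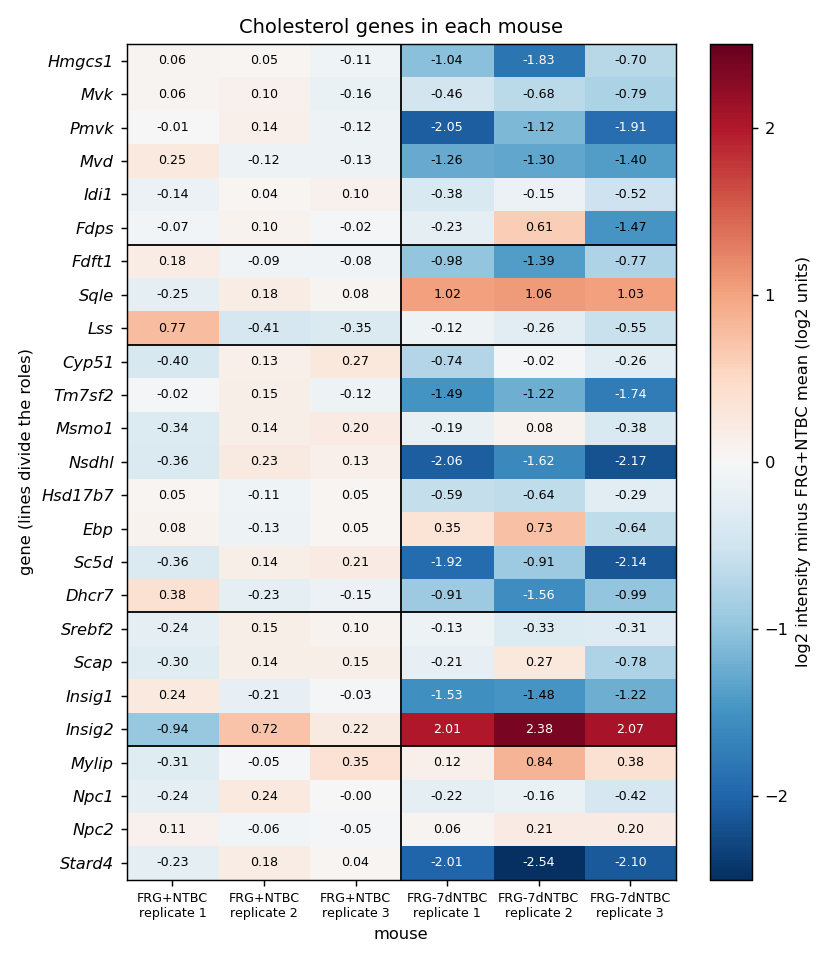
Log2 intensity of each measured cholesterol gene (rows, pathway order) in each of the 6 livers (columns) minus the FRG+NTBC mean of the gene, as colour and number. The 3 FRG-7dNTBC columns are blue at most synthesis enzymes, Insig1 and Stard4 and red at Sqle and Insig2, whereas Fdps and Ebp change colour between FRG-7dNTBC livers.

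Around these genes, 40 other genes of the pathway, listed by role, were measured. Of these, 14 were lower and 5 higher, against 12.7% and 17.4% of all genes, and 21 did not pass, with a median log2 fold change of -0.13. Scaling the arrays to a common 75th percentile gave 18 lower and 3 higher, and without moderation of the variances 6 were lower and 3 higher. The shares of all genes are also the background of the counts by role. The higher genes numbered 2 when FRG+NTBC replicate 1, FRG+NTBC replicate 2 or FRG-7dNTBC replicate 1 was left out, and the lower ones 9 when either of the last 2 was. The 3 measured genes listed as feeding enzymes were all lower at their brightest probe sets. Acss2, which activates acetate, fell from 2123 ± 658 to 634 ± 233 (SD, n = 3; log2 fold change -1.78, adjusted p = 0.00531), and Acly, which splits citrate, fell from 3241 ± 844 to 1664 ± 453 (log2 fold change -0.97, adjusted p = 0.0228). The next brightest Acly probe sets had log2 fold changes of -0.22 and 0.39 and did not pass. The third gene, Acat1, is a mitochondrial thiolase of ketone body and isoleucine metabolism and does not act in the cytosolic sterol route. It fell by 0.53 on the log2 scale at its brightest probe set and by 1.15 at its dimmest (adjusted p = 0.000681). Its second probe set had a log2 fold change of 0.16 that did not pass.

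Of 4 genes listed as branch enzymes, Nus1 passed and was higher at its brightest probe set. It is the partner subunit of Dhdds in making dolichol from the farnesyl product of Fdps. Nus1 stood at 296, 340.1 and 468 on NTBC and at 1243, 1531 and 1563 after withdrawal, a rise of 3.98-fold (log2 fold change 1.99, SE 0.19, adjusted p = 0.000297). The groups were well apart, and 3 of the 6 Nus1 probe sets rose while the others did not pass. For Dhdds itself the log2 fold change was -0.57 (adjusted p = 0.100). Ggps1, also listed as a branch enzyme, had -0.56 at its brightest probe set and did not pass. Dimmer Ggps1 probe sets rose by 1.27 and 1.05 (limma adjusted p = 0.000742 and 0.00166), and one at -0.08 did not pass. Among 8 genes of SREBP processing and protein degradation at the endoplasmic reticulum, Ubxn8, an anchor of the degradation machinery, was higher (log2 fold change 1.12, adjusted p = 0.0384), and the proteases that cleave SREBP, Mbtps1 and Mbtps2, had values of 0.00 and 0.52 that did not pass.

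Of 7 genes of uptake and the lysosome, 3 were lower and 1 was higher. The endocytic receptor Lrp1 fell 2.53-fold (log2 fold change -1.34, adjusted p = 0.00324), and Scarb1, the receptor for HDL cholesterol, fell from 2236 ± 259 to 1092 ± 73.4 (2.04-fold, adjusted p = 0.00114). Lipa, the lysosomal lipase that frees cholesterol from its esters, rose from 1597 ± 237 to 2481 ± 430 (1.55-fold, adjusted p = 0.0283). Scarb2, a lysosomal membrane protein, was lower at its brightest probe set (log2 fold change -0.88) and higher at the other (1.81), so that it has no direction here. Among 8 genes of sterol transport, 4 were lower and 1 was higher. Gramd1a, which takes up cholesterol at contacts of the endoplasmic reticulum with the plasma membrane, fell 2.16-fold, and Stard5, a carrier of the Stard4 family, fell 1.94-fold at its brightest probe set and did not pass at the others. Gramd1b, a relative of Gramd1a, rose 1.81-fold, from 17.4 ± 1.75 to 31.4 ± 0.704, within the brightness of the markers of absent cells. The other lower genes were Scp2 and Gramd1c, with log2 fold changes of -0.66 and -0.53. Of the other Scp2 probe sets, the dimmest fell by 1.02, whereas those at 0.05 and -0.50 did not pass.

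Of 10 genes of export, breakdown and oxysterol sensing, 4 were lower and 1 was higher. Cyp7a1, the rate-limiting enzyme of bile acid synthesis from cholesterol, stood at 2241, 2179.8 and 3350.1 on NTBC and at 118, 165 and 100.4 after withdrawal. This was 20.3-fold lower (adjusted p = 3.12e-05) and the largest change among the 40 genes. Srebf1, the gene of SREBP-1, which drives fatty acid synthesis, gave 2288, 1098 and 1489 on NTBC and 501, 300.2 and 377 after withdrawal (4.04-fold lower, log2 fold change -2.01, SE 0.29, adjusted p = 0.00157). The groups of Srebf1 were apart, unlike those of Srebf2, although the difference between the genes was not tested. Abcg8, a subunit of the exporter of sterols into bile, and Nr1h3, the oxysterol receptor LXR alpha, were the other lower genes, at -1.08 and -1.01. The sterol exporter Abcg1 rose 1.42-fold, from 114 ± 11.2 to 162 ± 8.53 (adjusted p = 0.0199). The dimmer Abcg1 probe set had a log2 fold change of 0.09 and did not pass. Abca1, of the same role, did not pass at its brightest probe set (0.36) or the next (1.27). Its dimmest probe set rose from 26.6 ± 1.27 to 103 ± 63.5 (limma adjusted p = 0.00893).

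**Figure D5:**
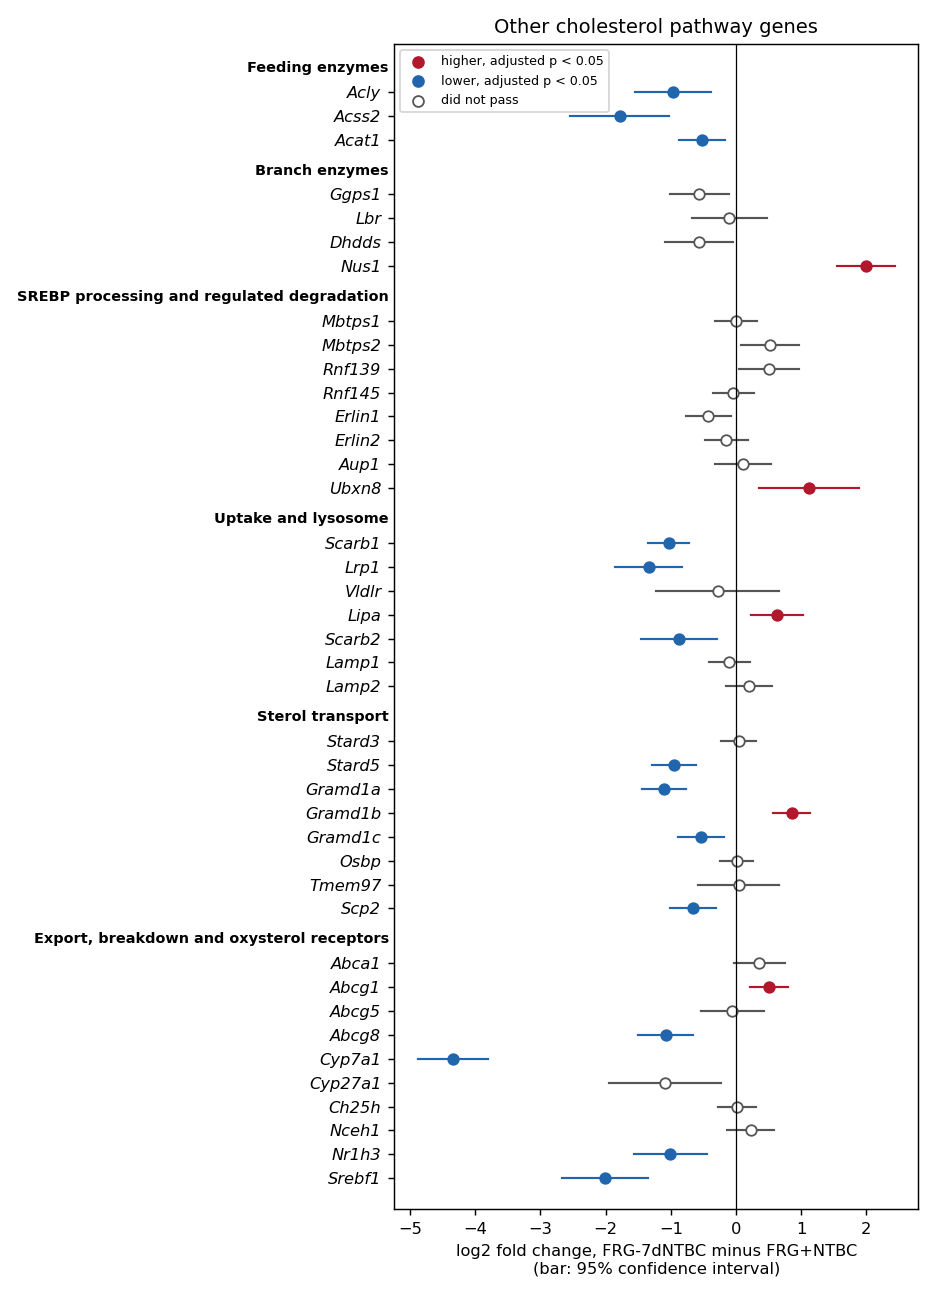
Log2 fold change (x axis, FRG-7dNTBC minus FRG+NTBC, 3 mice per group) of 40 other cholesterol pathway genes by role (y axis), with 95% confidence intervals as bars and filled points for an adjusted p under 0.05. Cyp7a1 lies farthest to the left, and Nus1 is the filled point farthest to the right.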

How the data were processed

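Whole-liver RNA of each of 6 mice was hybridised to its own Affymetrix mouse genome array. For the deposited intensity values, the authors ran Robust Multiarray Analysis: background correction, quantile normalization between arrays and a summary of the probes of each probe set. The Transcriptome Analysis Console is named in the submitters' processing notes. The table holds linear intensities for 45037 probe sets. Their 75th percentile was 131, 135 and 137 in FRG+NTBC and 148, 151 and 142 in FRG-7dNTBC replicates 1 to 3. The deposited arrays therefore do not have equal quantiles. All values of 100 or more lie on log2 steps of 0.01 (within 0.002), so the deposited table was rounded on the log2 scale. No number of reads or detection call is among the values used here, and the number of arrays limits the precision.

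The log2 of the intensities was taken, and limma 3.58.1 (lmFit, then eBayes; R 4.3.3) compared the groups over all probe sets, without covariates. Benjamini-Hochberg adjustment ran over all 45037 probe sets, and a probe set was called at an adjusted p under 0.05. Groups came from the sample labels, which name the mice as biological replicates. An exact permutation test of 3 mice against 3 cannot go below 0.1, so none was used. Except as a measure of brightness, intensities of different probe sets are not compared, because their probes differ in affinity. Names came from the annotation of the array: 34945 probe sets carry 1 symbol, 932 several and 9160 none. The script was tested on simulated data.

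All listed genes are named, and of the other pathway genes, per role, up to 2 that passed with the largest change in each direction, and Srebf1. Naming pathway genes outside this rule followed a look at their values. The listed genes, the other pathway list and the cell type markers were chosen with earlier results of these data known. Promoter windows came from RefSeq and have no link to the positions of the array probes. Alternatives were array scaling, quantile normalization, leaving out dim probe sets, other moderation of variances, array weights, leaving out each mouse, a block for the replicate number, and other rules for the probe set of a gene.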

Additional observations from a re-analysis of the deposited data

How the results depend on the processing

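Each cholesterol gene was refitted under 15 alternatives, and 343 of 375 values kept direction and call, 13 lost a call, 11 gained one and 8 changed sign. Pmvk, Mvd, Fdft1, Sqle, Tm7sf2, Nsdhl, Insig1 and Stard4 kept their calls under all 15. The listed genes had 10 to 12 lower and 2 to 3 higher calls when 1 mouse was left out, with a median log2 fold change of -0.52 to -0.38, and the other pathway genes 9 to 15 lower and 2 to 5 higher. Leaving out FRG+NTBC replicate 2 or FRG-7dNTBC replicate 1 gave the 9 lower, and leaving out either of these or FRG+NTBC replicate 1 gave the 2 higher. Without moderation of variances, 8 listed genes were lower and 1 higher, and 6 and 3 of the other pathway genes. Hmgcs1, Hsd17b7, Sc5d, Dhcr7 and Insig2 lost their calls there, with adjusted p-values of 0.0981, 0.073, 0.0795, 0.0737 and 0.0689. The median of the listed genes was -0.54 with quantile normalization and -0.52 with array weights, and 3 other pathway genes were higher with quantile normalization and 3 with scaling to a common 75th percentile. That scaling moved the median of all probe sets by -0.13 and turned 6284 higher and 6262 lower calls over all probe sets into 5366 and 9669, and without moderation they were 3141 and 3336. Without FRG+NTBC replicate 2, 3864 probe sets were lower, and 4125 were when FRG-7dNTBC replicate 1 was left out. The log2 fold change of Ebp was -0.032 with quantile normalization. Leaving out 1 mouse gave -0.15 to 0.54 for Ebp (negative without FRG-7dNTBC replicate 2), -0.52 to 0.070 for Lss (positive without FRG+NTBC replicate 1), and -0.85 to 0.19 for Fdps and -0.49 to 0.033 for Scap (both positive without FRG-7dNTBC replicate 3). The sign also changed for Hsd17b7 (0.17) and Srebf2 (0.11) with the mean of all probe sets, and for Hsd17b7 (0.35) without the s_at and x_at probe sets. The cause of these changes was not tested. With the replicate number as a replicate block, 12 listed genes were lower and 2 higher, with a median of -0.37, 15 and 5 of the other pathway genes, and 5272 and 6076 of all probe sets, so the block changed no call of a listed gene. The deviations of mice with equal numbers correlated at 0.106, 0.0339 and -0.156. With 3 mice per group these values cannot settle whether equal numbers mark pairs, and the labels do not say. The alternatives that change the probe set of a gene give no value over all probe sets.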
